A study of Mus musculus with 6 samples.

Results

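The unfolded protein and heat shock response was followed in the adult retina through 34 genes that encode stress sensors, chaperones, co-chaperones and the targets of the transcription factor ATF4. The genes were chosen by name for their roles, with earlier results of these data known. Each was read from the brightest of its probe sets over all arrays, that is, the one with the highest mean log2 intensity. A probe set bearing the symbol of 1 gene only was present for 33 of the 34 genes, against 18193 genes on the whole array, and all 33 passed the expression filter of a mean log2 intensity over 7 in either genotype, as did 11065 genes in all. Hsp90ab1, which encodes the constitutive cytosolic HSP90, was the member without such a probe set. The samples were retinas of adult mice lacking the transcription factor Onecut2 (OC2-KO) and of their wildtype littermates (OC2-WT), with no treatment and no age beyond adult given in the labels, and with 3 arrays per genotype and 1 array per sample. Each value was the log2 of an intensity that the authors had scaled to the same trimmed mean on every array, so that a change common to the whole transcriptome is hidden. The animals were full knockouts in which horizontal cells are reduced, and whole retina was taken, so that for every value below fewer cells of a type and less RNA per cell cannot be told apart. The probe sets of Onecut2 itself read its 3' end and are no check of the knockout. The labels do not say that the arrays came from separate animals, and p-values here measure the spread between these arrays only.

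Proteins that enter the secretory pathway are folded in the endoplasmic reticulum (ER) by the HSP70 chaperone BiP, the lectins calnexin and calreticulin and the protein disulfide isomerases. When unfolded proteins accumulate, the membrane sensors IRE1, ATF6 and PERK signal to the nucleus: IRE1 splices the Xbp1 mRNA, ATF6 is cleaved to release a transcription factor, and PERK slows translation while favouring that of ATF4, whose targets handle amino acid supply and, when stress persists, cell death. In the cytosol a separate program, driven by heat shock factors, raises HSP70, HSP90 and the small heat shock proteins. Rod photoreceptors, which make large amounts of the membrane protein rhodopsin, are known to engage these pathways in several inherited forms of retinal degeneration.

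The sequences in front of these genes hold elements known from both programs. RefSeq promoters (250 bases before to 50 after a gene's start, build GRCm38.p6) were present for 30 of the 34 members. The ER stress response element, which is CCAAT, any 9 bases and then CCACG on either strand, was found in 39 of 32851 promoters (0.119%), or 37 of 27025 genes (0.137%). It was in 7 of the 12 members that fold proteins in the ER (58.3%). It was in only 1 of 23 other genes for ER folding (4.35%) and in 2 of 14 genes for ER-associated degradation (14.3%). The elements of the members are shown because ATF6 is known to bind this element together with NF-Y. The intensities of these 7 members are described below. Capitals mark the CCAAT and CCACG boxes, or their reverse complements where the element runs against the gene, with 8 bases on either side, and each run reads 5' to 3' on the strand of its gene.
Hspa5, chr2:34772017-34772051, forward strand: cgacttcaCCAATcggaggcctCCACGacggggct
Hsp90b1, chr10:86705630-86705664, reverse strand: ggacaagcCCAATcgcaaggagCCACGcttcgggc
Hsp90b1, chr10:86705525-86705559, reverse strand: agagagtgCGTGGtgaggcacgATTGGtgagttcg
Calr, chr8:84847067-84847101, reverse strand: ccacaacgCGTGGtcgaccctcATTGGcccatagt
Canx, chr11:50325792-50325826, reverse strand: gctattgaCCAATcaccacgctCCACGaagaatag
Pdia6, chr12:17266483-17266517, forward strand: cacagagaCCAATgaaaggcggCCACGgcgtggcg
Dnajc3, chr14:118937819-118937853, forward strand: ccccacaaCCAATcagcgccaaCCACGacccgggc
Creld2, chr15:88819512-88819546, forward strand: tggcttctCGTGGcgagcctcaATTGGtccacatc
The element began 65 bases before the start of Hspa5, and between 98 and 212 bases before the start of the other genes, with a pair of them in opposite orientation at Hsp90b1. In Hspa5, Hsp90b1 (at its distal element), Canx, Pdia6 and Dnajc3 the boxes read along the gene, and in Calr and Creld2 against it. No promoter of a member outside ER folding held the element.

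The heat shock element, searched as 3 alternating GAA and TTC units that begin with either unit and lie 2 bases apart, on both strands, was found in 198 promoters (0.603%) and in 3 members, Hsph1, Hspd1 and Hspe1. It is shown for the mitochondrial pair Hspe1 and Hspd1, which stand head to head and share a single run of overlapping matches in capitals between their starts.
Hspe1, chr1:55088051-55088079, forward strand: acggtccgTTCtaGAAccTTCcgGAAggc
This run begins 84 to 89 bases before the start of Hspe1 in its overlapping readings. The cyclic AMP response element TGACGTCA, on either strand, was found in 588 promoters (1.79%) and in 1 member, Ppp1r15a. The amino acid response element TGATGNAAT, on either strand, was found in 317 promoters (0.965%) and in 0 of the 6 members of the ATF4 branch, and it was present in 6 of 28 other ATF4 targets (21.4%), namely Nupr1, Aars, Gars, Iars, Fgf21 and Pycr1. A match is a stretch of letters and not a shown binding site. A promoter without a match may hold a variant of the element, and a gene may hold the element outside the stretch searched.

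RNA quality differed with the number that the labels give each array. For the Actb controls, the 3' probe set minus the 5' probe set gave a log2 value of 2.95 and 3.39 in the OC2-WT and OC2-KO arrays numbered 3, against 0.71 to 1.41 in the other 4 arrays, and for the Gapdh controls it was 1.04 and 1.29 against -0.48 to -0.29. Between genotypes this measure for Actb did not separate (exact permutation p = 0.6, where 0.1 is the smallest possible), in a test that ignored the array numbers. Within the numbers 1 to 3 it was higher in OC2-KO each time, at 1.41 against 1.11, 0.74 against 0.71 and 3.39 against 2.95. For Gapdh it was higher in 2 of 3 pairs. The part of RNA quality in the genotype differences was not tested. The tissue read as retina, since all 6 rod markers with a probe set passed the filter, and their summed log2 level was 16.91 to 18.58 in OC2-WT and 16.78 to 18.32 in OC2-KO. Lens RNA was present too, and unevenly. The summed log2 level of 6 lens markers was 15.76, 14.63 and 12.26 in the OC2-WT arrays numbered 1 to 3. In the OC2-KO arrays it was 15.06, 15.53 and 14.88. The part of lens tissue in the differences of the members was not tested. Some marker sums separated the genotypes. The summed log2 level of 6 genes listed as reactive glia markers was 9.97 to 10.15 in OC2-WT and 11.63 to 12.72 in OC2-KO. These include genes the study itself picked from these arrays. Edn2 and Cebpd, which the study describes as stress genes, were the brightest of the 6 in OC2-KO, with means of 10.74 and 10.60. Which cells made this RNA was not tested. The summed level of 6 microglia markers was 11.23 to 11.48 in OC2-WT and 11.64 to 12.02 in OC2-KO. That of 6 Müller glia markers overlapped, at 14.82 to 15.23 in OC2-WT and 14.60 to 15.40 in OC2-KO. The summed level of 4 horizontal cell markers was 13.33 to 13.62 in OC2-WT and 12.59 to 12.96 in OC2-KO.

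Across the 33 measured members the genotypes lay close together. Of these genes 22 were higher and 11 lower in mean log2 intensity in OC2-KO retina, with a median difference (OC2-KO minus OC2-WT) of 0.07, beside 0.0085 over all 18193 named genes and -0.0048 over the 11065 that passed the filter, of which 48.8% were higher. By limma, 0 of the 33 members passed an adjusted p of 0.05, as did 0 of all genes (0%), and the smallest adjusted p of a member was 1.00. At an unadjusted p of 0.05 the fit called 1 member, Chac1, against 0.985% of all genes, and over every probe set of the members it called 1 of 66, against 0.987% of all probe sets kept. With the array number as a replicate block the call on the brightest probe sets was again Chac1 alone, while over every probe set 3 of 66 passed, all higher in OC2-KO, against 4.19% of all probe sets kept: that of Chac1 and a dimmer one each of Trib3 and Hspb1, at an adjusted p of 0.999. The arrays of the genotypes did not overlap for 1 member, again Chac1, in the higher direction (1.95% of all genes), and for 0 in the lower direction (1.83%). In each same-numbered pair of arrays, 4 members (Ern1, Chac1, Dnajb1 and Hsp90aa1) were higher in OC2-KO in 3 of 3 pairs and 1 (Sdf2l1) was lower in 3 of 3, against 10.9% and 12.1% of all genes. Among the 20 members with more than 1 probe set kept, 8 had probe sets on both sides of 0.

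**Figure D1:**
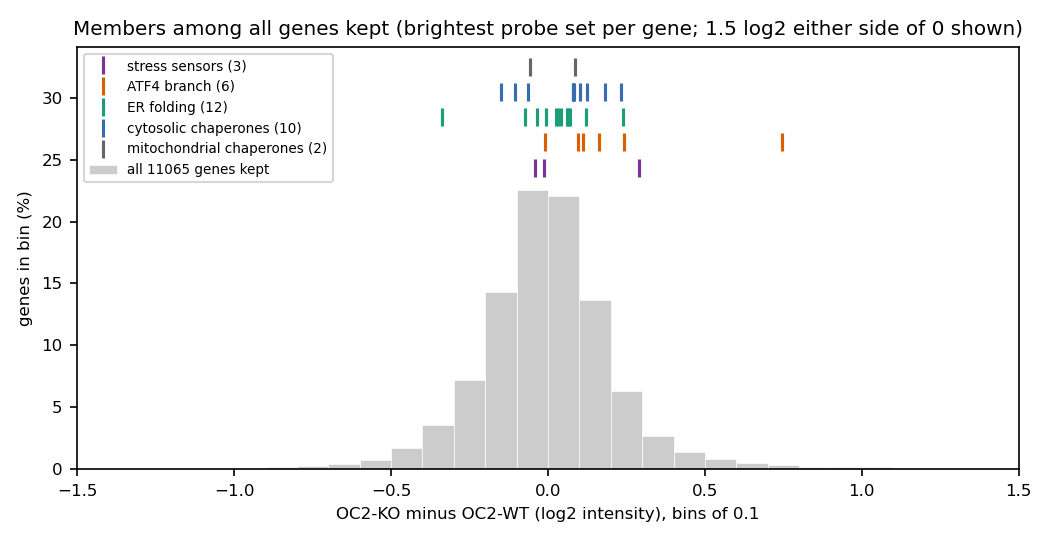
Grey bars give the share of the 11065 genes kept (percent, y axis) in each bin of the difference OC2-KO minus OC2-WT in log2 intensity (x axis, shown to 1.5 on either side of 0). Coloured ticks above them mark the 33 measured members by group: 22 lie above 0, 11 below, and Chac1 at 0.75 stands apart on the right.

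What these arrays could have shown is described here by the intervals of the fit without pairs. Its SE includes the spread between array numbers. The 95% confidence interval of the limma fit lay within 1 log2 unit on either side of 0 for 27 of the 33 members, and it spanned 0 for 32. The 6 members whose interval reached past 1 log2 unit were Chac1, Pdia3, Hspa1b, Hspa8, Hsp90aa1 and Hspb1. With the array number as a replicate block the SE of each was smaller, at 0.17 for Chac1 and 0.16 for Pdia3, against 0.24 and 0.55. For Hspa1b, Hspa8, Hsp90aa1 and Hspb1 it was 0.20, 0.18, 0.16 and 0.20, against 0.38, 0.40, 0.46 and 0.46. Intervals with the block are not given here. For the 27 others, a 2-fold change in either direction fell outside the interval of the brightest probe set. This does not hold for every probe set of these genes. Dimmer ones that passed the filter had intervals of -3.31 to 1.67 for Dnajc3 and -2.21 to 2.01 for Canx, for example.

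**Figure D2:**
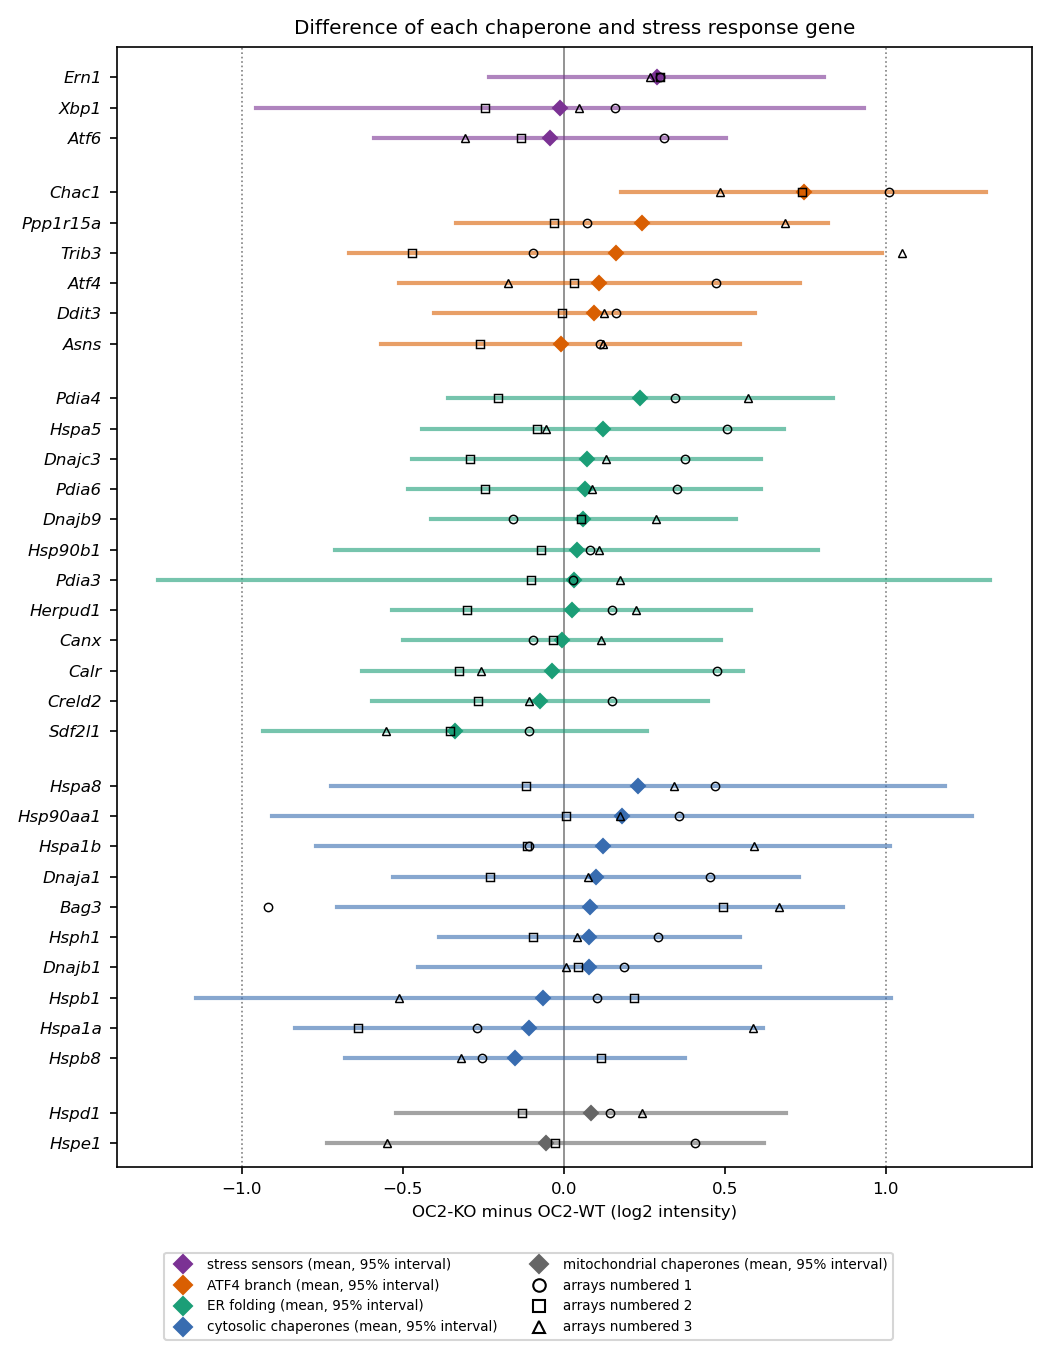
Each row is a member gene, and the x axis is the difference OC2-KO minus OC2-WT in log2 intensity. Filled diamonds are the differences of the genotype means with their 95% intervals from limma, coloured by group, and open symbols are the differences within arrays of the same number; only the interval of Chac1 lies wholly above 0, from 0.18 to 1.31.

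The sensors of ER stress were measured through Atf6, which encodes the cleaved membrane factor, Ern1, which encodes IRE1, and Xbp1, the substrate of IRE1. Ern1 read 9.34, 9.73 and 9.59 in the OC2-WT arrays numbered 1 to 3 and 9.64, 10.03 and 9.86 in the OC2-KO arrays. The genotypes overlapped, but within each number the OC2-KO array was the higher, by 0.30, 0.30 and 0.27. The difference of 0.29 (SE 0.22, 95% interval -0.23 to 0.81) stayed within the spread between arrays. The 4 other Ern1 probe sets did not pass the filter.

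Atf6 read 10.82, 10.82 and 10.81 in OC2-WT against 11.13, 10.69 and 10.50 in OC2-KO. The wildtype arrays were nearly equal, and the knockout arrays lay on both sides of them, for a difference of -0.04 (SE 0.23, 95% interval -0.59 to 0.50). Its dimmer probe sets that passed the filter differed by -0.09 and by 0.66 (SE 0.45, 95% interval -0.40 to 1.72). Xbp1 read 12.87, 13.01 and 11.90 in OC2-WT against 13.03, 12.77 and 11.95 in OC2-KO. Here the low values were those of the arrays numbered 3 in both genotypes, and the genotypes differed by -0.01 (SE 0.40, 95% interval -0.96 to 0.93). A 3' array of this kind sums the spliced and unspliced Xbp1 mRNA, so that the activity of IRE1 was not measured. Of the Xbp1 probe sets, 3 others passed the filter and differed by -0.13 to 0.04 between genotypes.

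The ATF4 branch held the only member that passed the unadjusted threshold. Its 6 genes had a median difference of 0.14, and 5 of them were higher and 1 lower in OC2-KO. Chac1, which encodes a gamma-glutamylcyclotransferase that breaks down glutathione and is a target of ATF4 and CHOP, read 7.02, 7.39 and 7.10 in OC2-WT against 8.03, 8.13 and 7.58 in OC2-KO, on its single probe set. All OC2-KO arrays lay above all OC2-WT arrays, and the array numbered 3 was the lowest of OC2-KO. The OC2-WT arrays averaged 7.17 ± 0.19 and the OC2-KO arrays 7.91 ± 0.29 (SD, n = 3 each). The difference was 0.75 (SE 0.24), or 1.68-fold with a 95% interval of 1.13 to 2.48, and the limma adjusted p = 1.00. Within the numbers 1, 2 and 3 the differences were 1.01, 0.74 and 0.48. The OC2-WT mean lay just above the filter of 7, and a filter at 8 removed the gene.

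The call on Chac1 depended on which arrays entered: without the array numbered 1 of OC2-WT, or without that numbered 1 or 2 of OC2-KO, it no longer passed the unadjusted threshold, with differences of 0.67, 0.69 and 0.64. Without both arrays numbered 3, which stood apart in RNA quality, the difference was 0.88 and passed, and without both numbered 1 or both numbered 2 it was 0.61 and 0.75 and did not pass. The OC2-KO arrays also held more RNA of the genes listed as reactive glia and microglia markers, as given above. The part of any change in cells in the Chac1 difference was not tested.

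The remaining genes of the branch overlapped between genotypes. Atf4 itself, the transcription factor whose translation is favoured under stress, read 12.44, 12.23 and 12.80 in OC2-WT against 12.92, 12.27 and 12.63 in OC2-KO. Ddit3, which encodes the death-associated factor CHOP, read 10.90, 10.68 and 10.68 in OC2-WT against 11.06, 10.68 and 10.80 in OC2-KO. The highest array of both genes within OC2-KO was that numbered 1, and the differences were 0.11 (SE 0.26, 95% interval -0.51 to 0.73) for Atf4 and 0.09 (SE 0.21, 95% interval -0.40 to 0.59) for Ddit3.

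Ppp1r15a, which encodes the GADD34 subunit that restarts translation, read 8.87, 9.15 and 8.45 in OC2-WT against 8.94, 9.12 and 9.14 in OC2-KO. The difference of 0.24 (SE 0.24, 95% interval -0.33 to 0.82) came mostly from the low OC2-WT array numbered 3. Trib3, a pseudokinase that restrains ATF4 and CHOP, was described after its values were seen, and read 7.79, 7.89 and 6.68 in OC2-WT against 7.70, 7.42 and 7.73 in OC2-KO. A single low OC2-WT array, numbered 3, again set the difference of 0.16 (SE 0.35, 95% interval -0.67 to 0.99). On the other Trib3 probe set OC2-KO was higher in 3 of 3 pairs, by 0.75, 0.43 and 0.24, and the difference was 0.47 (SE 0.24, 95% interval -0.10 to 1.05), which passed the unadjusted threshold with the replicate block and not without it. Asns, which encodes asparagine synthetase and serves widely as a readout of ATF4, differed by -0.01 (SE 0.24, 95% interval -0.57 to 0.55).

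**Figure D3:**
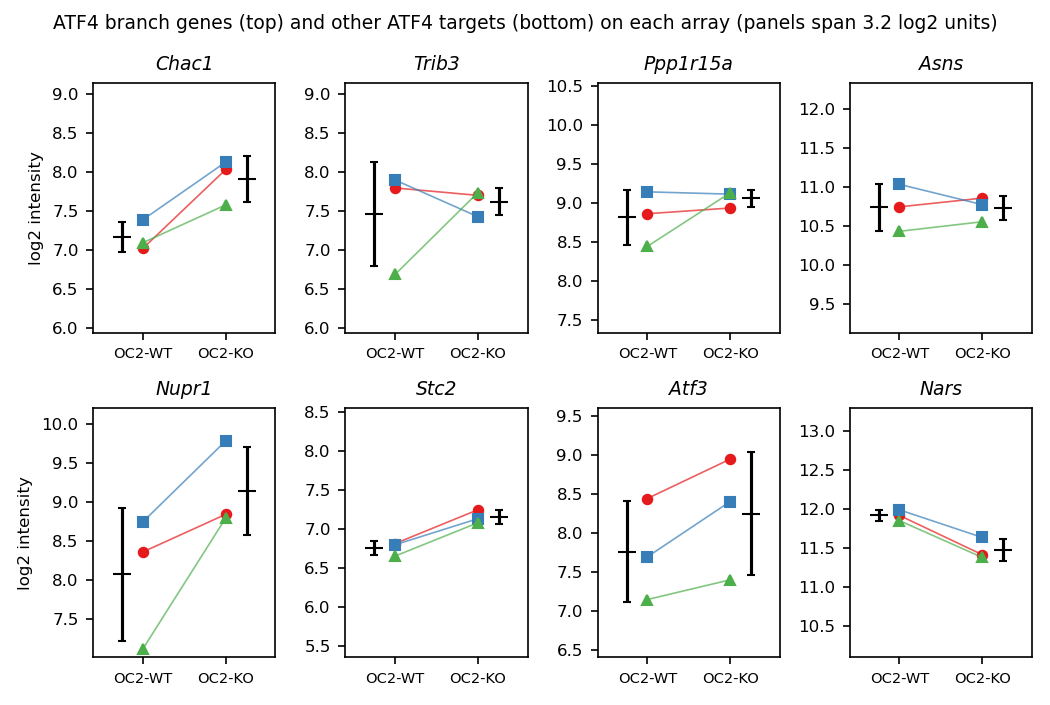
Log2 intensity (y axis) of 4 ATF4 branch members (top) and 4 other ATF4 targets (bottom) in each OC2-WT and OC2-KO array; lines join arrays of the same number (circle 1, square 2, triangle 3) and black bars are the mean ± SD of 3 arrays. Chac1, Nupr1 and Stc2 do not overlap between genotypes and are higher in OC2-KO, Nars is lower, and Atf3 is higher in each pair although the genotypes overlap.

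Other targets of ATF4 gave the nearest values to a call among the neighbouring genes of the pathway. Of 33 further targets on the list, 30 had a probe set and 28 passed the filter, with a median difference of 0.06 over the 30, of which 22 were higher and 8 lower. By limma without the pairs, 0 of the 28 passed an unadjusted p of 0.05, whereas 4 did once the array number entered as a replicate block: Nupr1, Stc2 and Atf3 higher and Nars lower in OC2-KO. With the block 3.53% of all genes passed, and the adjusted p of these 4 was 0.999.

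Nupr1, a small chromatin protein induced by amino acid shortage and ER stress, read 8.36, 8.75 and 7.12 in OC2-WT against 8.85, 9.79 and 8.80 in OC2-KO. The OC2-KO values lay above all OC2-WT values, the lowest OC2-KO array only just, and the difference was 1.07 (SE 0.48, 95% interval -0.06 to 2.19). Stc2, which encodes the secreted glycoprotein stanniocalcin 2, read 6.81, 6.80 and 6.65 in OC2-WT against 7.24, 7.13 and 7.08 in OC2-KO, close to the filter throughout. Its difference was 0.40 (SE 0.19, 95% interval -0.06 to 0.85). Atf3, a stress-induced repressor named for its call with the block after the values were seen, read 8.44, 7.69 and 7.14 in OC2-WT against 8.94, 8.40 and 7.40 in OC2-KO. Within each number the OC2-KO array held more Atf3, by 0.50, 0.71 and 0.25, while the arrays numbered 1, 2 and 3 differed from each other by more than the genotypes did, and the difference of means was 0.49 (SE 0.48, 95% interval -0.63 to 1.61). Nars, which encodes asparaginyl-tRNA synthetase, lay on the other side of 0: it read 11.91, 11.99 and 11.85 in OC2-WT against 11.41, 11.63 and 11.38 in OC2-KO, with no overlap. The difference was -0.44 (SE 0.20, 95% interval -0.91 to 0.02). The amino acid enzyme Cth, cystathionine gamma-lyase, had the next smallest p among the lower genes, at -0.25 (SE 0.23, 95% interval -0.79 to 0.29).

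The 12 genes for folding in the ER had a median difference of 0.04, with 8 higher and 4 lower in OC2-KO, and 0 passed an unadjusted p of 0.05. Hspa5, which encodes BiP and is the usual readout of the unfolded protein response, read 13.11, 13.07 and 13.35 in OC2-WT against 13.61, 12.99 and 13.29 in OC2-KO. The OC2-KO array numbered 1 was the highest and that numbered 2 the lowest of all 6, and the difference of 0.12 (SE 0.24, 95% interval -0.44 to 0.68) lay within this spread. Both other Hspa5 probe sets differed by 0.16 and 0.29.

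The smallest p of the group belonged to Sdf2l1, a component of the ER chaperone complex. It read 8.26, 8.21 and 7.98 in OC2-WT against 8.15, 7.86 and 7.42 in OC2-KO. It was lower in OC2-KO within each number, by differences of -0.11, -0.35 and -0.55, but the OC2-KO array numbered 1 lay within the OC2-WT range. The difference of means was -0.34 (SE 0.25, 95% interval -0.93 to 0.26). Pdia4, a disulfide isomerase, came next and read 9.99, 9.89 and 9.58 in OC2-WT against 10.34, 9.68 and 10.15 in OC2-KO, with 0.24 (SE 0.25, 95% interval -0.36 to 0.84). The OC2-KO arrays numbered 1 and 3 were the highest of the 6, and that numbered 2 was lower than the OC2-WT arrays numbered 1 and 2.

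The 7 ER chaperones whose promoters held the stress element shown above, Hspa5, Hsp90b1, Calr, Canx, Pdia6, Dnajc3 and Creld2, differed by -0.07 to 0.12, with 4 higher and 3 lower and a median of 0.04. Their intervals together ran from -0.71 to 0.79. Calreticulin (Calr) differed by -0.04 and calnexin (Canx), its membrane-bound relative, by -0.0049, with the other probe sets of both genes between -0.12 and -0.06. Hsp90b1, which encodes the ER form of HSP90, differed by 0.04 on its brightest probe set and by -0.16 on the other. The remaining members, Pdia3, Dnajb9 and Herpud1, differed by 0.03 to 0.06.

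Pdia3, the disulfide isomerase that works with calnexin and calreticulin, was named after its values were seen because of its spread. It read 11.08, 11.20 and 9.57 in OC2-WT against 11.11, 11.10 and 9.75 in OC2-KO. The arrays numbered 3 were more than 1 log2 unit below the others in both genotypes, and within each number the genotypes differed by 0.03, -0.10 and 0.17. The genotype difference was 0.03 (SE 0.55, 95% interval -1.26 to 1.33), an interval that the low pair widened.

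**Figure D4:**
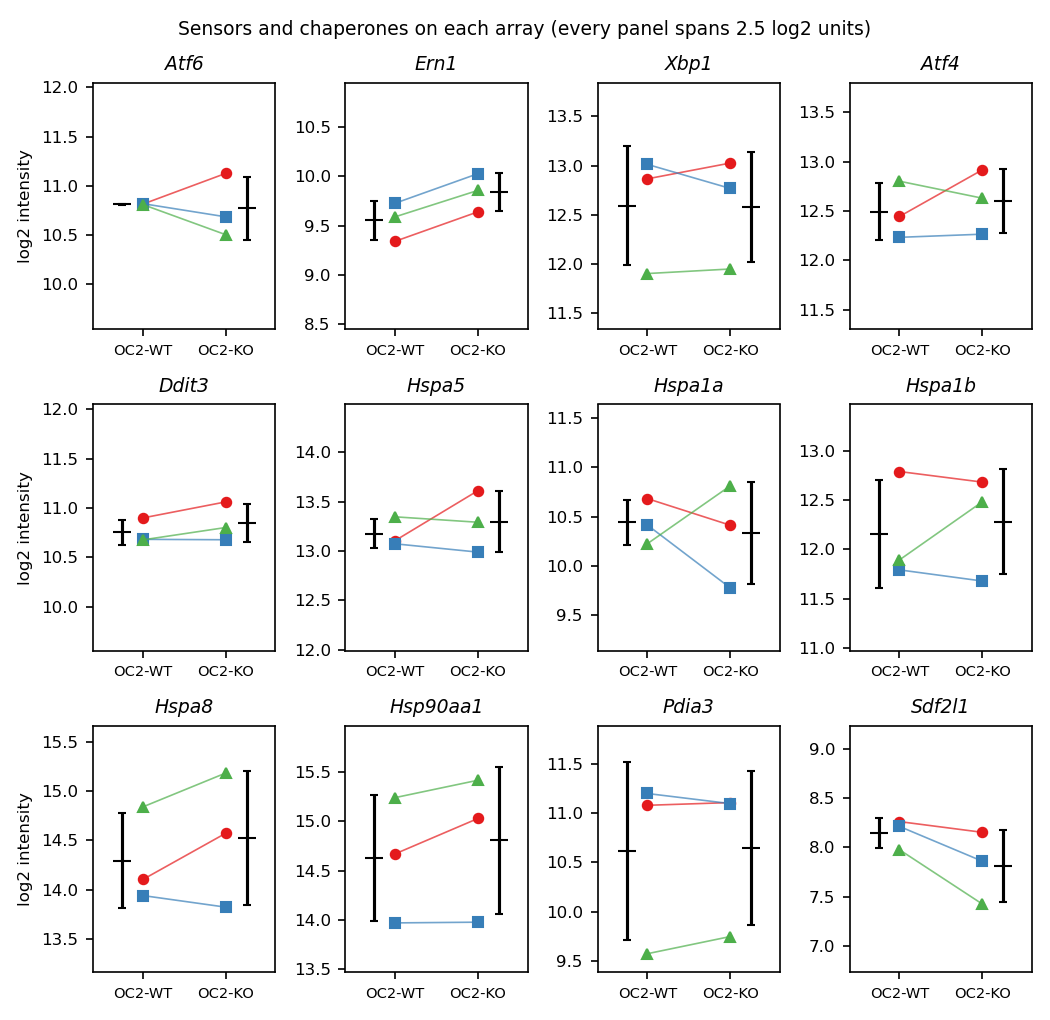
Log2 intensity (y axis) of 12 members in each OC2-WT and OC2-KO array, on axes of equal height; lines join arrays of the same number (circle 1, square 2, triangle 3) and black bars are the mean ± SD of 3 arrays. For Pdia3 and Xbp1 (triangles low) and Hspa8 and Hsp90aa1 (triangles high) the lines are shallow beside the distance between the numbers. Other panels differ, with lines that cross for Hspa1a and fan out for Atf6.

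Of the 11 cytosolic members 10 were measured, with a median difference of 0.08, 7 higher and 3 lower in OC2-KO, and 0 past an unadjusted p of 0.05. Hspa1a and Hspa1b, the inducible HSP70 genes that rise most steeply on heat shock, are nearly identical in sequence, and which of them a probe set reads is uncertain. Hspa1a read 10.68, 10.41 and 10.22 in OC2-WT against 10.41, 9.78 and 10.81 in OC2-KO. Hspa1b read 12.79, 11.79 and 11.89 in OC2-WT against 12.68, 11.68 and 12.48 in OC2-KO. On these brightest probe sets the OC2-KO array was lower in the numbers 1 and 2 and higher by 0.59 in the number 3. The genotypes overlapped, at -0.11 (SE 0.31, 95% interval -0.83 to 0.62) and 0.12 (SE 0.38, 95% interval -0.77 to 1.01). The other Hspa1b probe sets differed by 0.12 and 0.24 and did not share this pattern. Within the numbers 1 to 3 they differed by 0.45, -0.20 and 0.11, and by 0.21, 0.03 and 0.48.

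Hspb8, a small heat shock protein that acts with Bag3 in selective autophagy, and the constitutive HSP70 gene Hspa8 had the smallest p in this group. Hspb8 read 8.23, 8.15 and 8.04 in OC2-WT against 7.97, 8.27 and 7.72 in OC2-KO, with -0.15 (SE 0.22, 95% interval -0.68 to 0.38). Hspa8 read 14.10, 13.94 and 14.84 in OC2-WT against 14.57, 13.82 and 15.18 in OC2-KO, with 0.23 (SE 0.40, 95% interval -0.72 to 1.18). Both overlapped between genotypes, and for Hspa8 the arrays numbered 3 were the highest and those numbered 2 the lowest in either genotype. Its 3 other probe sets differed by -0.48 to 0.25, so that the brightest probe set does not speak for all of them.

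Hsp90aa1, the inducible cytosolic HSP90, was named after its values were seen: it read 14.67, 13.97 and 15.24 in OC2-WT against 15.03, 13.98 and 15.42 in OC2-KO. The OC2-KO array was the higher within each number, by 0.36, 0.01 and 0.18, and the numbers themselves spanned 1.36 log2 units, so that the difference of 0.18 (SE 0.46, 95% interval -0.91 to 1.27) was small beside that spread. The HSP40 co-chaperones Dnajb1 and Dnaja1 differed by 0.08 and 0.10, the HSP110 gene Hsph1 by 0.08, the small heat shock protein gene Hspb1 by -0.06 and the HSP70 co-chaperone Bag3 by 0.08, none past the unadjusted threshold. A dimmer Hspb1 probe set lay on the other side of 0: it read 8.19, 8.23 and 7.02 in OC2-WT against 8.81, 8.40 and 7.52 in OC2-KO. The genotypes overlapped on it, within each number the OC2-KO array was the higher, by 0.61, 0.18 and 0.49, and the difference of 0.43 (SE 0.45, 95% interval -0.63 to 1.49) passed the unadjusted threshold with the replicate block and not without it. Bag3 was the least steady, at -0.92, 0.50 and 0.67 within the numbers 1 to 3.

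The mitochondrial chaperonin genes, which share the promoter region shown above, were measured as Hspd1 (HSP60) and its lid Hspe1 (HSP10). Hspd1 read 12.06, 12.22 and 11.54 in OC2-WT against 12.20, 12.09 and 11.79 in OC2-KO. Hspe1 read 11.89, 11.58 and 12.19 in OC2-WT against 12.30, 11.55 and 11.64 in OC2-KO. The genotypes overlapped for both, with differences of 0.09 (SE 0.26, 95% interval -0.52 to 0.69) and -0.06 (SE 0.29, 95% interval -0.74 to 0.62), and Hspe1 differed by 0.41 within the number 1 and by -0.55 within the number 3.

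The spread between pairs of arrays was set beside the genotype difference. The range of the 3 pair means exceeded the genotype difference in 32 of 33 members, Chac1 being the exception, and in 10164 of 11065 genes kept. A range over 3 means of 2 arrays tends to exceed a difference of 2 means of 3 arrays even without a pair effect. These counts therefore only describe the values and cannot show that pairs mattered more than genotype. For the members the median range was 0.39 beside a median absolute genotype difference of 0.08, and over all genes kept these were 0.48 and 0.11. It was largest among the members for Pdia3 (1.49), Hsp90aa1 (1.36), Hspb1 (1.15), Hspa8 (1.13), Xbp1 (1.02) and Hspa1b (1.00). In the arrays numbered 3, Pdia3 and Hspb1 lay over 1 log2 unit below the mean of the other pairs, while Hspa8, Hsp90aa1 and Hsp90b1 lay over 0.5 above it. Other probe sets of some genes were also low there: a dimmer one for Canx read 8.19 and 8.65 in the arrays numbered 3 against 10.62 to 11.20 in the others, and a dimmer one for Hsph1 read 7.79 and 8.13 against 9.62 to 10.43. The brightest probe sets of Canx and Hsph1 did not show this drop. These are the arrays with the larger 3' to 5' differences, and the part of RNA quality in these levels was not tested.

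**Figure D5:**
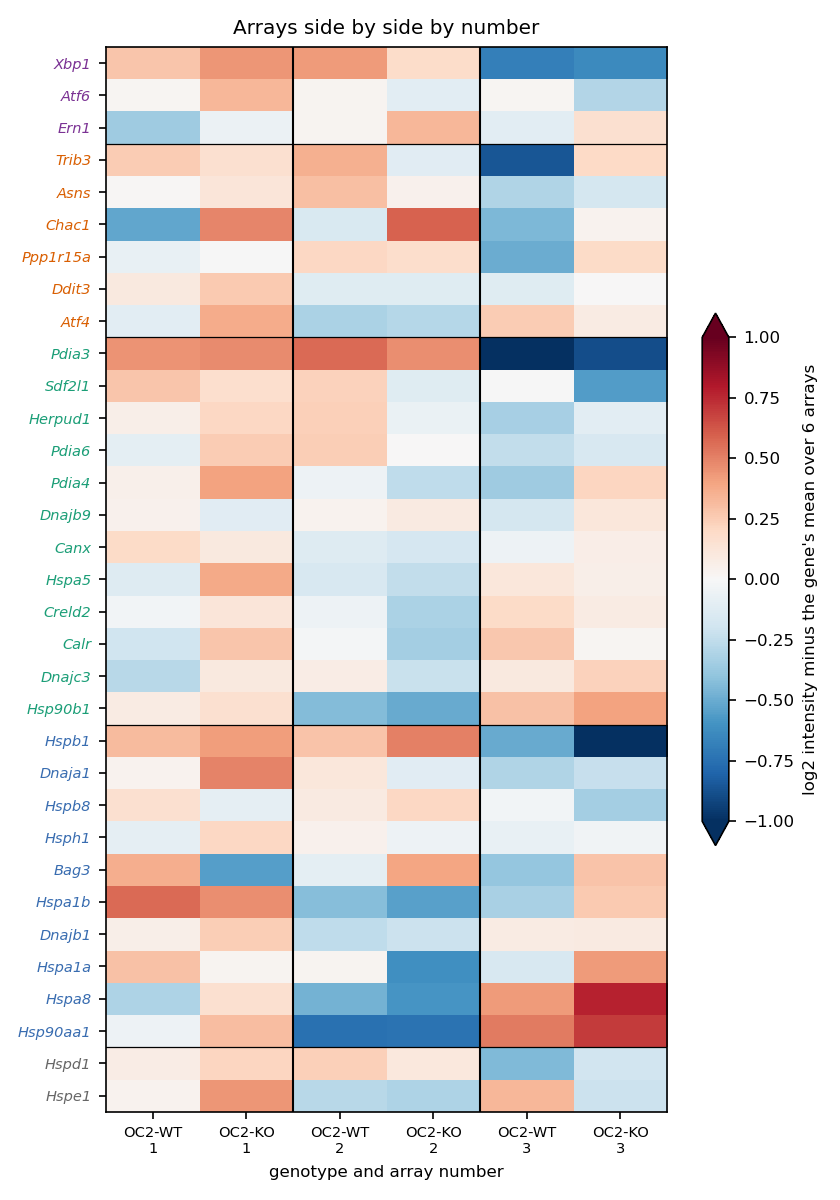
Colour gives the log2 intensity of each member (rows, grouped by role) in each array (columns, same-numbered OC2-WT and OC2-KO arrays side by side) minus the gene's mean over the 6 arrays, red above and blue below. Neighbouring columns of the same number look alike for some genes, and Pdia3, Hspb1 and Xbp1 are blue in both arrays numbered 3.

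The genotype difference of the groups as a whole also varied between pairs. Over the 33 members the median difference was 0.16, -0.10 and 0.12 within the numbers 1, 2 and 3 (SD 0.14), while over the genes kept it was 0.0011, -0.0075 and -0.0083. The ER folding genes gave 0.15, -0.22 and 0.11, the cytosolic chaperones 0.14, -0.04 and 0.13, and the ATF4 branch 0.14, -0.02 and 0.31. In each of these groups the pair numbered 2 had a median below 0 and the pairs numbered 1 and 3 a median above it. Without the OC2-KO array numbered 1 the median was -0.05 for the cytosolic chaperones and -0.05 for the ER folding genes, and 0.05 for the ATF4 branch.

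The rest of the pathway was read through 168 further genes on 6 lists, of which 152 had a probe set and 138 passed the filter. By limma 0 of the 138 passed an unadjusted p of 0.05, with the smallest p for Nars, and 4 passed with the replicate block, the ATF4 targets named above. The genotypes did not overlap for 6 of them, against 3.78% of all genes: Sil1, Nupr1, Stc2 and Hspbp1 were higher, and Faf2 and Nars lower, in OC2-KO.

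Among the 28 further genes for ER folding kept, the smallest p values in the higher direction were those of Sil1, the nucleotide exchange factor of BiP, at 0.38 (SE 0.22, 95% interval -0.13 to 0.90), and of the prolyl isomerase Fkbp7, at 0.22 (SE 0.25, 95% interval -0.37 to 0.81). Sil1 read 8.91, 9.14 and 8.64 in OC2-WT against 9.16, 9.34 and 9.35 in OC2-KO, where the lowest OC2-KO value lay only just above the highest OC2-WT value. In the lower direction they were the co-chaperone Dnajc25, at -0.16, and the disulfide isomerase Pdia5, at -0.15. Of the 17 genes for ER-associated degradation kept, which remove misfolded proteins to the proteasome, the ubiquitin-conjugating enzyme Ube2j1 (0.29) and the segregase Vcp (0.12) were nearest in the higher direction, and the mannosidase-like Edem2 (-0.23) and the Vcp adaptor Faf2 (-0.17) in the lower.

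Of the 39 further cytosolic chaperone genes kept, those with the smallest p were the small heat shock protein gene Hspb6, at 0.38 (SE 0.28, 95% interval -0.28 to 1.03), and the HSP70 regulator Hspbp1, at 0.29 (SE 0.22, 95% interval -0.23 to 0.81), in the higher direction, and the HSP70 relative Hspa12a, at -0.41 (SE 0.25, 95% interval -0.99 to 0.17), and the chaperonin subunit Cct8, at -0.26, in the lower. The 12 mitochondrial genes ran from -0.14 for Trap1, the mitochondrial HSP90, to 0.24, and the smallest p values were those of the proteases Yme1l1 (0.22) and Clpx (0.15) on the higher side and of Trap1 and the protease Htra2 (-0.12) on the lower. Of the 14 regulators kept, Eif2ak3, which encodes PERK, differed by 0.20 (SE 0.25, 95% interval -0.38 to 0.78), and it read 10.25, 10.58 and 10.02 in OC2-WT against 10.65, 10.60 and 10.20 in OC2-KO. Its OC2-KO array was the higher in 3 of 3 pairs, as for Ern1, with genotypes that overlapped for both. Traf2, an adaptor of IRE1, differed by 0.17, the heat shock factor gene Hsf2 by -0.24 and Mbtps2, the protease that cleaves ATF6, by -0.05.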

How the data were processed

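Retinal RNA was, per the labels, amplified, labelled with biotin and hybridised to Affymetrix mouse genome arrays, and MAS5 (version not given in the sources used here) served for background adjustment and normalization. What the authors deposited is a table of 45101 probe sets in linear intensity, each array having a 2% trimmed mean of 500. Scanner files were not used here. After a log2 transform and removal of 64 control probe sets, those with a mean log2 intensity over 7 in either genotype were kept. A two-sided limma fit (lmFit, eBayes; version 3.58.1 under R 4.3.3) without trend or block used all 6 arrays (4 residual degrees of freedom), and its p-values were adjusted by Benjamini-Hochberg over these 21176. The study's two-tailed t-test was an alternative. Probe sets were named from the platform annotation, only where it gives 1 symbol (34945).

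Genotypes and replicate numbers came from the labels. Arrays of the same number (1, 2 or 3) deviated together from their genotype means, with correlations of 0.576, 0.590 and 0.585 against -0.429 to -0.135 for unlike numbers, and were taken as pairs; the labels do not say what a number marks. The replicate block left 2 residual degrees of freedom and raised the probe sets past an unadjusted p of 0.05 from 209 to 887.

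The members and all lists were chosen with earlier results of these data known. Arrays were listed for members with genotypes that do not overlap or past an unadjusted p of 0.05, for Atf6, Ern1, Xbp1, Atf4, Ddit3, Hspa5, Hspa1a and Hspa1b, and for the 2 members of each group with the smallest p; of other pathway genes the 2 per list and direction with the smallest p were named. Other genes were named after their values were seen, as stated there. No arrays held identical values, and the fits were tested on simulated data. The number of arrays limits the precision.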

Additional observations from a re-analysis of the deposited data

How the results depend on the processing

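The count of members past an unadjusted p of 0.05 on the brightest probe set was 1 of 33 (Chac1) in every alternative run on all arrays except a filter at 8, which removed Chac1 and left 0. It ranged from 0 to 1 when arrays were left out, and was 0 without the OC2-WT array numbered 1, the OC2-KO array numbered 1 or 2, or both arrays of the number 1 or 2. Over every member probe set the count was 1 of 66, but 3 with the replicate block (Chac1 and dimmer probe sets of Trib3 and Hspb1), 1 with the block and an intensity trend, 2 without a filter and 0 with a filter at 8. With arrays left out it was 0 to 2, being 0 without the OC2-WT array numbered 1, the OC2-KO array numbered 1 or both, and 2 without the OC2-WT array numbered 2 or the OC2-KO array numbered 3. Over all settings that tested it, by limma or the t-test, Chac1 passed the unadjusted threshold in 12 of 17, its adjusted p was 0.998 to 1.00, and its difference 0.61 to 0.91. The count of other pathway genes past the threshold was 4 with the replicate block, 5 with the block and an intensity trend, 2 without a filter and by the methods' t-test, and 1 with quantile normalization, a filter at 8, an intensity trend or array weights, against 0 as reported and 0 to 1 with arrays left out; the cause was not tested. On brightest probe sets the replicate block changed no call on a member.

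Group medians of the difference stayed within the spread between pairs, save that of the cytosolic chaperones without the OC2-KO array numbered 1. With arrays left out they ranged from -0.05 to 0.11 for ER folding genes, 0.05 to 0.27 for the ATF4 branch and -0.0502 (without that array) to 0.18 for cytosolic chaperones. Averaging all probe sets of a gene gave -0.07, 0.22 and 0.07. For single members, 682 of 687 alternative values lay within the spread between arrays, the exceptions being Pdia4 (0.81), Pdia6 (0.30) and Dnajc3 (-0.61) averaged over all probe sets, dim ones included, Hspa8 on its plain-suffix probe set (-0.48) and Bag3 without both arrays numbered 1 (0.58). Quantile normalization and median centring shifted the median of all genes by -0.0003 and -0.0096.

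MAS5 intensities of dim probe sets, Chac1, Stc2 and Trib3 among them, lie near the filter, where folds are uncertain. With 3 arrays per genotype the median SE of a member's difference in the fit without pairs was 0.25 log2 units, which limits the differences that could be seen.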
